A study of Mus musculus with 8 samples.

Results

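The cells described here are 287 of the 9458 barcodes that passed a collagen gate in 4 single-cell RNA libraries of mouse heart, and they carry Wif1, Ucma or Chad. A barcode with 200 to 6000 genes, 500 to 30000 unique molecular identifiers (UMIs, each a counted RNA molecule) and a mitochondrial share under 15% entered the gate when Col1a1, Col1a2, Col3a1 and Dcn together had at least 20 UMIs and Ptprc and Pecam1 had none. Members were those with at least 3 UMIs of Wif1, Ucma and Chad together, and the other 9171 barcodes of the gate served for comparison. The hearts came from male wild-type C57BL/6J mice. The labels give an age of 8 weeks, which the study states for the mice when purchased. Hearts were taken after sham surgery or 2, 4 or 6 weeks after transverse aortic constriction (TAC). In TAC a suture narrows the aortic arch and loads the left ventricle with pressure. The study asked how the cells and regions of the loaded heart change over these weeks. The conditions are called sham, TAC-2w, TAC-4w and, for the latest hearts, TAC-6w. Each gave 1 library and 1 Visium tissue section, and the labels do not say how many mice went into them. No sample is therefore a replicate of a condition, and the condition of each library cannot be told apart from its mouse or its preparation. By the batch labels, TAC-2w was library batch 1, TAC-4w batch 2, and both sham and TAC-6w batch 3. The deposited libraries held 86671674, 78587992, 48278486 and 28793316 UMIs in this order of conditions, from sham to TAC-6w, which all values below follow.

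Wif1 encodes a secreted inhibitor that binds Wnt ligands outside the cell, Ucma encodes a small secreted protein first known from cartilage, and Chad encodes chondroadherin, a leucine-rich protein of cartilage matrix. Wnt ligands bind Frizzled receptors and LRP co-receptors, which stabilises beta-catenin and lets TCF/LEF factors switch on target genes such as Axin2, many of which restrain the pathway in turn. In the heart, matrix genes shared with cartilage and tendon are known above all from the valves and the fibrous tissue that anchors them.

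The 3 genes that define the members lie apart in the genome (GRCm38.p6). Wif1 lies at chr10:121034004-121100642, Ucma at chr2:4976122-4985748 and Chad at chr11:94565047-94569127. Their promoters are shown because the selection rests on these genes, together with that of Sp5, the Wnt target gene with the highest fold change in them. Each is the 250 bases before the start of the gene on the plus strand, from RefSeq. Capitals mark the letters CTTTGA, the core that TCF/LEF factors recognise, and ACAAAG, a core that SOX factors recognise, each read on both strands, where the 2 cores differ only in the last base of CTTTGA and of CTTTGT.
Wif1 (chr10:121033754-121034003): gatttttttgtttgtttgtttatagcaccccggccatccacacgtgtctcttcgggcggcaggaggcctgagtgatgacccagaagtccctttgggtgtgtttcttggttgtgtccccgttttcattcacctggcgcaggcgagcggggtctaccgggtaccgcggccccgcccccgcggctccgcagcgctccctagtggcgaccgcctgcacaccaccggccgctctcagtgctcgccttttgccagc
Ucma (chr2:4975872-4976121): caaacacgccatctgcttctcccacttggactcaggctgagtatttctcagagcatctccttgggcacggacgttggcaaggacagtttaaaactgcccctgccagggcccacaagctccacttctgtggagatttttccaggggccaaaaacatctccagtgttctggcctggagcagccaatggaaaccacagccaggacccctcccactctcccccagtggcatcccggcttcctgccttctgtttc
Chad (chr11:94564797-94565046): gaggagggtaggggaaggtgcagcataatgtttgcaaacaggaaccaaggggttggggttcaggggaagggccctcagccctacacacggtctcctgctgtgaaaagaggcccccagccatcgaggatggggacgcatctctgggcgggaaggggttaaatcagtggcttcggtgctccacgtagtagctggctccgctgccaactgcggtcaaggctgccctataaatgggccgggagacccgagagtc
Sp5 (chr2:70474673-70474922): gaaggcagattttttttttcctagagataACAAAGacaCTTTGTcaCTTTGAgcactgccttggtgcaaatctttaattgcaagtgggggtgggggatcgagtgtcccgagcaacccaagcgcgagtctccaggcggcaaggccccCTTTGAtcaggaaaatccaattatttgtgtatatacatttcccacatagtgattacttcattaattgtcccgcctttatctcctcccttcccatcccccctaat
Neither core was found in the Wif1, Ucma and Chad windows, which says only that these letters are not there. The Sp5 window held CTTTGA at 204 and 104 bases before the start and ACAAAG at 221 and 212. Of 32841 mouse promoter windows of this length, 13.8% held CTTTGA and 16.5% held ACAAAG. Among the 12 Wnt target genes listed below, 8 had a window, and 3 of their 14 windows (21.4%) held CTTTGA. Of the 15 named genes with the highest fold changes, 13 had a window, and 3 of their 15 windows (20.0%) held CTTTGA, those of Col9a1, Pdzrn4 and Uts2r.

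The TAC-4w library stood apart before any comparison. Only 315 of its 6747 kept barcodes passed the collagen gate, against 3762 of 8228 in sham, 2696 of 6501 in TAC-2w and 2685 of 5577 in TAC-6w. It held 35 members, with 116 in sham, 102 in TAC-2w and 34 in TAC-6w. Members had a median of 11406, 14606, 15132 and 8020 UMIs, and the other gate barcodes 10406, 12464.5, 13075.5 and 6218. The median mitochondrial share was 4.14, 4.27, 3.34 and 2.37% in members and 4.03, 3.98, 2.92 and 2.33% in the others. The TAC-6w library was thus the shallowest in both classes, and depth and mitochondrial share were slightly higher in members of every library. Pairs of libraries shared between 9 and 30 barcode sequences, and no sequence was a member in more than 1 library. Scrublet, run at an expected doublet rate of 7% with the 3.2% highest scores of each library taken as doublets, marked 2 of the 287 members, so members were kept whole and its effect is given as an alternative.

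The selecting genes are described without a test. Wif1 was the most widespread of them, with a UMI in 258 of 287 members (89.9%), while Ucma had one in 108 (37.6%) and Chad in 72 (25.1%). Members held 98.1% of the 5863 Wif1 UMIs of the gate, 93.5% of the 674 Ucma UMIs and 98.4% of the 2375 Chad UMIs. Summed over members, Wif1 reached 1604, 1524, 1682 and 619 UMIs per 1000000 UMIs (CPM). Ucma stood at 180, 217, 50.1 and 41.3 CPM, and Chad at 618, 673, 48.3 and 1358 CPM. Wif1 was thus lowest in TAC-6w, Ucma was low in both TAC-4w and TAC-6w, and Chad was lowest in TAC-4w and highest in TAC-6w. None of the 3 exceeded 4.20 CPM in the other gate barcodes of any library.

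**Figure D1:**
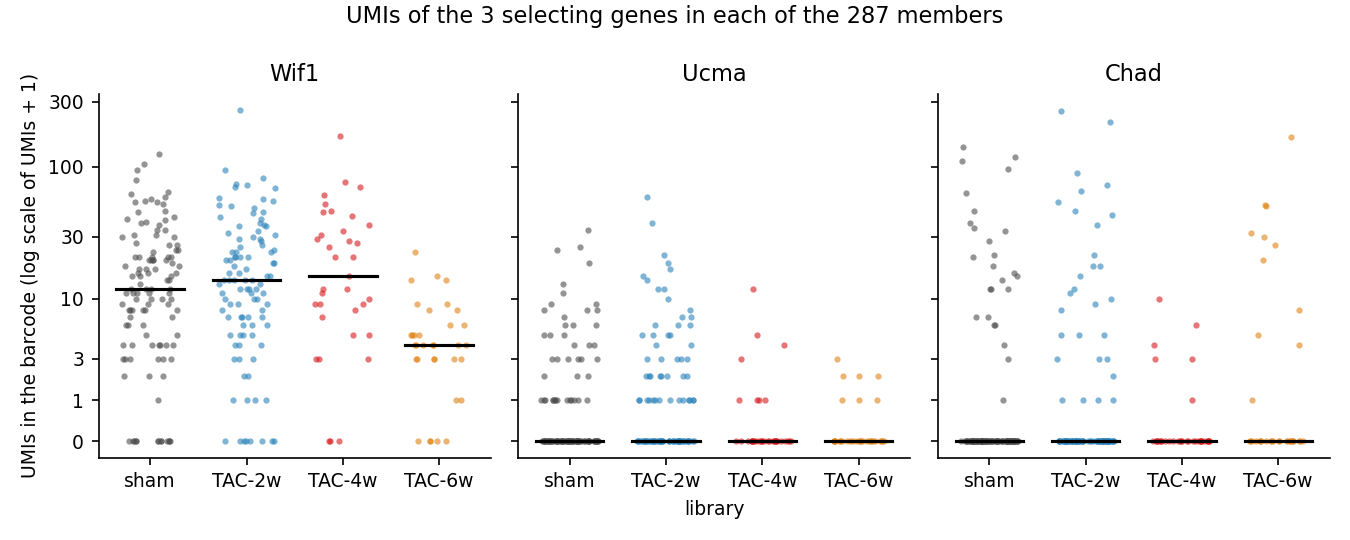
UMIs of Wif1, Ucma and Chad in each of the 287 members (1 point per barcode, vertical axis on a log scale of UMIs + 1), by library, with the median as a bar. The Wif1 medians are 12, 14, 15 and 4 UMIs, whereas the medians of Ucma and Chad are 0 in every library and a minority of barcodes carries their UMIs.

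Wif1 alone was found in 145 members, Wif1 with Ucma in 54, all 3 genes in 36, Wif1 with Chad in 23, Ucma alone in 16, Chad alone in 11, and Ucma with Chad in 2. Single barcodes reached 124, 260, 168 and 23 Wif1 UMIs, with a median of 12, 14, 15 and 4. A Wif1 UMI was found in 0.389, 0.611, 0.270 and 0.235% of barcodes with a Ptprc UMI, a marker of white blood cells (median 7218.5, 8975, 4548 and 2797 UMIs), and in 2.30, 3.58, 1.86 and 1.39% of those with a Pecam1 UMI and no Ptprc UMI, where Pecam1 marks endothelial cells (median 10524, 11011, 5692.5 and 5078 UMIs). It was found in 1.01, 0.848, 3.93 and 0.528% of the other gate barcodes, a share that the rule for members had cut and that is not compared with the 2 before it. No clear step in Dkk3, Fmod or Comp was seen at the 3-UMI threshold. The 40 barcodes with 2 UMIs, just outside it, held 779 CPM of Dkk3, 197 CPM of Fmod and 1551 CPM of Comp, close to the 803, 242 and 1223 CPM of the 30 barcodes with 3 UMIs, just inside. The 9020 barcodes with none held 92.0, 15.9 and 116 CPM, and the 87 with 4 to 11 held 1191, 309 and 813 CPM. The 170 with at least 12 held 1393, 795 and 1954 CPM. Dkk3 and Fmod thus rose in order over these classes, and Comp did not. These are pooled levels and do not show how single barcodes spread.

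Both other genes of the working label, which were chosen with these data known, were higher in members than in the others in every library. Hapln1, whose product links hyaluronan to proteoglycans, reached 60.1, 79.6, 62.6 and 13.8 CPM in members and 0.512, 0.694, 1.31 and 0.283 CPM in the others. Fmod, encoding the collagen-binding proteoglycan fibromodulin, reached 616, 651, 295 and 1062 CPM against 6.7, 12.4, 141 and 26.1 CPM. By library, members held 81.1, 84.1, 87.5 and 44.4% of the Hapln1 UMIs of the gate, the last from 9 UMIs in all, and 77.1, 70.9, 23.5 and 40.1% of the Fmod UMIs, so that in TAC-4w and TAC-6w most Fmod UMIs lay outside the members. The collagen genes and Dcn were fixed by the gate and do not bear on the fibroblast label. Of the 6 other tested markers of fibroblasts in general, Dpt and Lum were higher in members in the test described below, at 2140.1, 1978, 1807 and 1984 CPM and 1962, 2363, 2663 and 1076 CPM, and Tcf21, Mfap5, Pdgfra and Gsn were lower (-2.23, -1.58, -1.25 and -0.82 on the log2 scale). Pdgfra, the receptor used to mark cardiac fibroblasts, was at 126, 138, 154 and 107 CPM in members and 318, 357, 279.7 and 272 CPM in the others.

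Markers of other cell types were counted in the same barcodes. A UMI of at least 3 of the 6 markers of another type was found in 56.9, 30.4, 60.0 and 11.8% of members, and in 50.2, 20.8, 48.6 and 3.73% of the others. The 6 pericyte and smooth muscle markers summed to 563, 825, 628 and 595 CPM in members against 276, 288, 251 and 61.3 CPM in the others, with Acta2 the most abundant in sham, TAC-2w and TAC-6w and Rgs5 in TAC-4w. Of these 6, Vtn was at 0 in members of sham, TAC-4w and TAC-6w, and Myh11, which defines mature smooth muscle, was at 53.1, 46.3, 1.79 and 0 CPM. Macrophage markers summed to 76.2, 99.8, 30.4 and 41.3 CPM in members against 176, 159, 76.3 and 179 CPM, led by Lyz2 in each library. Endothelial markers summed to 45.4, 90.0, 41.2 and 37.8 CPM against 107, 134, 66.1 and 41.5 CPM. The 6 cardiomyocyte markers summed to 219, 123, 16.1 and 24.1 CPM against 122, 138, 22.3 and 38.7 CPM, led by Tnnt2 in members. Depth was also higher in members. The part of other cell types in the results was not tested beyond leaving such barcodes out, and that of depth not beyond thinning each barcode to 2000 UMIs. In the test described next, 5 of 5 tested red cell genes, 3 of 4 macrophage markers, 1 of 3 endothelial and 1 of 3 neutrophil markers were lower in members, and 1 of 6 platelet markers, Nrgn, was higher. None of 6 cardiomyocyte, 3 B cell and 1 T and NK cell markers was called, and the 6 Schwann and 6 mesothelial markers were too low to test. Of these calls, the neutrophil marker was lost without sham, TAC-2w or TAC-6w, the endothelial marker without sham, and Nrgn without TAC-2w or TAC-6w, while 3 neutrophil markers were lower without TAC-4w. When barcodes with markers of another cell type were left out, 0 of 4 tested red cell genes and 0 of 3 tested macrophage markers were lower. That setting left barcodes out by these same markers, so its counts for them were shaped by the filter and are not read as a result. After Scrublet removal, 0 of 3 macrophage markers were lower. Without TAC-4w, 1 of 6 cardiomyocyte markers, Tnnt2 (0.88 ± 0.20 SE, adjusted p = 0.000875), and 1 of 3 B cell markers, Cd79b (2.24 ± 0.83 SE, adjusted p = 0.0451), were called higher in members.

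To ask what the members shared beyond the selecting genes, UMIs were summed per library over members and over the other gate barcodes, and the 8 sums were compared with edgeR's quasi-likelihood test with the library as a block. The 9 genes of the selection were left out. Of 11259 genes, 1145 (10.2%) were higher in members and 1266 (11.2%) lower, 21.4% in either direction, at a Benjamini-Hochberg adjusted p under 0.05. Without the TAC-4w library 1549 genes were higher and 1702 lower, without sham 601 and 705, without TAC-2w 597 and 625, and with no replicate block 641 and 689. Wif1, Ucma and Chad had been picked from these same cells, so genes that vary with them were bound to differ, and the adjusted p-values rank genes and do not support the grouping. Genes that are low elsewhere passed the filter on low counts through the members alone.

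The 15 genes with the highest fold changes, ranked as set out in the processing, are named here. Bglap2 (ENSMUSG00000074486), an osteocalcin gene of the Bglap cluster whose near-identical neighbours can share its reads, stood at 85.2, 69.8, 66.2 and 13.8 CPM in members and 0.307, 0.0603, 0.262 and 0 CPM in the others (log2 fold change of members over others 8.60 ± 0.32 SE, adjusted p = 2.61e-07). Wnt16 (ENSMUSG00000029671), a secreted Wnt ligand, stood at 31.4, 56.1, 119.9 and 24.1 CPM against 0.23, 0.452, 0.525 and 0.113 CPM (7.12 ± 0.26 SE, adjusted p = 2.61e-07). For both, the lowest member value lay above the highest value of the others, while a higher value in every library was required for naming. Cyp26a1, the enzyme that clears retinoic acid, was at 30.7, 55.4, 1.79 and 92.8 CPM in members, with only 1 UMI behind the TAC-4w value, and at 0.486, 0.121, 0 and 1.02 CPM in the others (6.83 ± 0.45 SE). Npy, the gene of neuropeptide Y, was at 152, 98.5, 8.95 and 44.7 CPM against 0.819, 1.45, 0 and 3.73 CPM (6.03 ± 0.52 SE). Pappa2, a protease that cleaves IGF-binding proteins, was at 34.2, 65.2, 3.58 and 37.8 CPM against 0.281, 0.271, 2.1 and 0 CPM (6.84 ± 0.84 SE). These 3 genes had their lowest member value in TAC-4w.

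Of the 15, Coch had the widest range over libraries. It encodes cochlin, an extracellular protein best known from the inner ear, and stood at 51.7, 117, 344 and 3.44 CPM in members and 0.512, 3.32, 0.262 and 0.113 CPM in the others (6.07 ± 0.42 SE). The TAC-6w value rests on 1 UMI, and there the classes were closest. Few members carried Coch, with a UMI in 12.1% of the 215 without Chad and 0% of the 64 with at least 3 Chad UMIs. Prss35, a serine protease-like secreted protein, was steadier at 80.4, 72.4, 100.2 and 48.1 CPM against 0.972, 1.06, 1.84 and 1.7 CPM (5.89 ± 0.24 SE). Ostn, encoding the secreted peptide osteocrin, was at 21.7, 21.5, 12.5 and 20.6 CPM against 0.537, 0.241, 0 and 0.226 CPM (5.98 ± 0.48 SE). The other named genes were Uts2r, the urotensin II receptor, with 7.02, Kcnmb4, an accessory subunit of calcium-activated potassium channels, with 6.86, Pdzrn4 with 6.78, and the matrix genes Hapln1, Cilp2, Col9a1 and Col11a2 with 6.57, 6.48, 6.46 and 6.16. All 15 were higher in members of all 4 libraries, as the rule for naming them required.

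**Figure D2:**
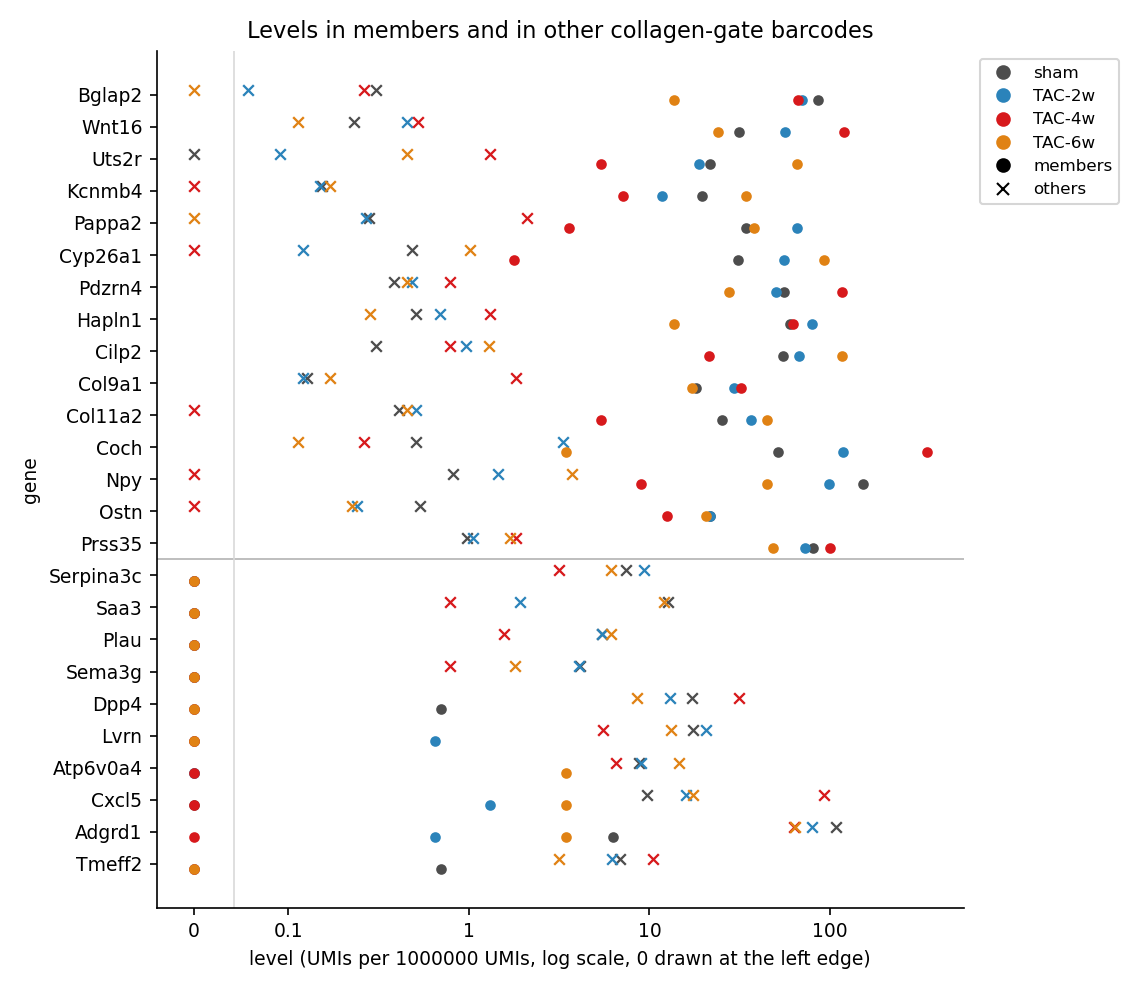
Levels of the 25 named genes in members (dots) and in the other collagen-gate barcodes (crosses), 1 colour per library, in UMIs per 1000000 UMIs on a log scale with 0 at the left edge. In the upper 15 genes the dots lie to the right of the crosses of the same colour, and in the lower 10 genes to the left, with Serpina3c, Saa3, Plau and Sema3g at 0 in members of all 4 libraries.

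Among the ligands of the Wnt pathway, 8 of 19 listed genes were abundant enough to test, of which 3 were higher in members and 2 lower. Over all genes tested, 10.2% were higher and 11.2% lower, the shares to set beside each list count in this report. Wnt5a, a ligand mostly linked to signalling without beta-catenin, was at 102, 135, 136 and 51.6 CPM in members and 23.5, 27.6, 73.7 and 11.9 CPM in the others (1.84 ± 0.22 SE, adjusted p = 0.000176), higher in all 4 libraries. Wnt16, described above, and Wnt9a were also called higher (7.12 and 0.84), and Wnt6 and Wnt10b were lower (-3.20 ± 0.77 SE and -2.55 ± 0.55 SE). The member values of both lower ligands rested on few UMIs, at 0.699, 0, 1.79 and 0 CPM for Wnt6 and 2.1, 0.652, 0 and 0 CPM for Wnt10b. No ligand was called lower without the sham library, without TAC-2w, with no replicate block or after thinning. Wnt9a missed the threshold when barcodes with markers of another cell type were left out (0.92, adjusted p = 0.0752).

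Of 19 tested receptors and co-receptors, 7 were higher in members and 2 lower, with a median log2 fold change of 0.15 beside -0.02 over all genes tested. Fzd9, a Frizzled receptor, was at 25.2, 18.9, 17.9 and 13.8 CPM in members and 0.716, 0.543, 2.36 and 0.283 CPM in the others (4.72 ± 0.47 SE, adjusted p = 6.14e-05). Lgr5, a receptor for R-spondins, was at 6.29, 3.91, 12.5 and 13.8 CPM against 0.0512, 0.392, 0.525 and 0 CPM (5.15 ± 0.91 SE), and Fzd10 at 9.08, 6.52, 3.58 and 3.44 CPM against 0.0512, 0, 0 and 0.0565 CPM (7.38 ± 0.89 SE). These 3 receptors were scarce in members and close to absent in the other gate barcodes. Lrp5, a co-receptor found in both classes, was at 51, 53.5, 53.7 and 65.3 CPM against 20.7, 22.8, 19.9 and 39.5 CPM (1.18 ± 0.14 SE), and its groups did not overlap. Fzd6, Fzd3 and Fzd1 were also higher (2.73, 1.14 and 0.66), whereas Fzd4 and Ror2 were lower (-1.72 and -1.56). When barcodes with markers of another cell type were left out, Fzd1 and Fzd3 stood at 0.077 and 1.13 and missed the threshold (adjusted p = 0.899 and 0.137), and Fzd6 was too low to test. The count of higher receptors fell to 3 without sham, 3 without TAC-2w, 3 when at least 2 of the 3 selecting genes were required and 2 of 10 tested after thinning to 2000 UMIs. Lrp6, the other LRP co-receptor of the pathway, was not called, at 68.5, 75.6, 75.2 and 72.2 CPM against 64.8, 72.7, 107 and 48.7 CPM.

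Of the secreted antagonists other than Wif1, 3 of 7 tested genes were higher and 1 was lower. Dkk3, a secreted member of the Dickkopf family, was the most abundant, at 1308, 1381, 1066 and 1124 CPM in members and 90.4, 98.4, 322 and 71.8 CPM in the others (3.36 ± 0.33 SE, adjusted p = 5.33e-05), and 280 of 287 members (97.6%) carried a UMI of it. Frzb, which binds Wnt ligands, was at 202, 188, 118 and 186 CPM against 29.9, 45.4, 129.9 and 63.3 CPM (1.66 ± 0.36 SE), so that in TAC-4w alone it was lower in members. Notum, an enzyme that inactivates Wnt proteins, was found in members of sham and TAC-2w only, at 10.5, 5.22, 0 and 0 CPM (6.41 ± 0.93 SE). Sfrp1, another secreted Frizzled-related inhibitor, was lower in members of all 4 libraries, at 161, 143, 191 and 99.7 CPM against 248, 263, 466 and 214 CPM (-0.96 ± 0.12 SE). Without sham or without TAC-2w, 1 antagonist was called higher.

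All 12 listed target genes of the pathway were tested, of which 9 were higher in members, none was lower, and the median log2 fold change was 2.29. Axin2, a scaffold of the beta-catenin destruction complex, was at 42.6, 30.0, 37.6 and 41.3 CPM in members and 4.43, 5.31, 6.56 and 3.73 CPM in the others (2.90 ± 0.23 SE, adjusted p = 1.6e-05). Tnfrsf19, a receptor of the TNF family, was at 13.3, 22.2, 32.2 and 13.8 CPM against 0.205, 0.362, 0.787 and 0.396 CPM (5.66 ± 0.42 SE). Nkd1, an inhibitor that acts on Dishevelled, was at 23.8, 35.9, 21.5 and 27.5 CPM against 6.34, 6.21, 12.6 and 2.77 CPM (2.06 ± 0.32 SE). For these 3 genes the lowest member value lay above the highest value of the others. Rnf43, an enzyme that removes Frizzled receptors from the cell surface, was at 2.1, 8.48, 23.3 and 6.88 CPM against 0.0256, 0.0905, 0 and 0.113 CPM (6.44 ± 0.75 SE), and the transcription factor Sp5 at 1.4, 3.26, 7.16 and 6.88 CPM against 0, 0.0603, 0 and 0 CPM (6.67 ± 1.16 SE), both from few UMIs. Apcdd1 and Bambi, membrane inhibitors of Wnt and of TGF-beta signalling, were also higher (1.43 and 0.89), as was Tcf7, a TCF factor (2.53). Nkd2, Znrf3 and Ccnd1 were not called. The count of called targets ranged from 4 to 9 over the alternative settings, with 5 when at least 2 of the 3 selecting genes were required and 4 of 6 tested after barcodes were thinned to 2000 UMIs.

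Of the listed cartilage matrix genes, 18 of 28 were tested, of which 13 were higher in members and 1, Matn2, was lower, with a median of 3.67 beside -0.02 over all genes tested. Prg4, the lubricant protein of joints, was at 2722, 2775, 1789 and 2448 CPM in members and 182, 144, 236 and 178 CPM in the others (3.71 ± 0.18 SE, adjusted p = 1.05e-06). Comp, a matrix protein of cartilage and tendon, was at 1355, 1497, 2507 and 1386 CPM against 46.8, 62, 1438 and 164 CPM (3.41 ± 0.59 SE, adjusted p = 0.00227). Prg4 was thus far apart in every library, while the TAC-4w library held much Comp in both classes. Cilp2, related to a cartilage intermediate layer protein, was at 54.5, 67.2, 21.5 and 117 CPM against 0.307, 0.965, 0.787 and 1.3 CPM (6.48 ± 0.29 SE). Col9a1 and Col11a2, chains of the minor cartilage collagens IX and XI, were at 18.2, 29.3, 32.2 and 17.2 CPM and 25.2, 36.5, 5.37 and 44.7 CPM in members and at most 1.84 and 0.513 CPM in the others. Acan, the large cartilage proteoglycan, was at 17.5, 7.83, 12.5 and 0 CPM against 0.0512, 0.603, 3.15 and 0.565 CPM (4.09 ± 0.95 SE). Col2a1 and Col10a1, the main collagens of cartilage and of its hypertrophic zone, were too low to test. Cytl1, a secreted protein of cartilage, was at 1367, 895, 64.4 and 182 CPM against 58.2, 57, 282 and 72.4 CPM and missed the threshold (2.41 ± 0.97 SE, adjusted p = 0.112), but without the TAC-4w library its log2 fold change was 3.57 ± 0.26 SE (adjusted p = 1.89e-13). Without sham or without TAC-2w 9 of 17 tested cartilage matrix genes were higher and none lower, and with no replicate block 8 of 15 were higher.

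Of 7 tested chondrogenic transcription factors 5 were higher, with a median of 1.04. Sox9, the main regulator of cartilage formation, was at 161, 207, 289.9 and 138 CPM in members and 101, 111, 63.5 and 104 CPM in the others (1.04 ± 0.24 SE), and its partners Sox5 and Sox6 had log2 fold changes of 1.25 and 2.32. Sox9 was thus present in both classes, with the widest gap in TAC-4w. Of 12 tested tendon and ligament genes 8 were higher and 2 lower (median 1.31). Scx, the transcription factor scleraxis of tendon, was at 88, 96.5, 34 and 138 CPM against 2.0, 3.11, 5.77 and 8.59 CPM (4.57 ± 0.34 SE, adjusted p = 9.64e-06), and Kera, encoding the proteoglycan keratocan, at 21, 22.8, 0 and 3.44 CPM against 0.102, 0.0905, 0 and 0.0565 CPM (7.46 ± 0.64 SE). Tnmd and Mkx, markers of mature tendon, were too low to test. Of 10 tested transcription factors of valve development 7 were higher and none lower (median 1.04). Msx1 was at 112, 105, 118 and 127 CPM against 23.9, 25.5, 32.5 and 20.5 CPM (2.15 ± 0.14 SE) and Tbx20 at 455, 536, 419 and 279 CPM against 168, 209, 94.7 and 124 CPM (1.51 ± 0.15 SE). For both, every member value lay above every value of the others. Hand2, Gata4 and Twist1 had log2 fold changes of 1.67, 1.05 and 1.00. The lists overlap, since Fmod and Prg4 stand under cartilage and tendon, and Sox9 and Scx also under valve development. The higher tendon genes numbered 5 without sham, without TAC-2w or with no replicate block, and the higher chondrogenic factors 3 with no replicate block and 3 when at least 2 of the 3 selecting genes were required.

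Of 7 tested mineralization regulators 4 were higher and 1 lower. Mgp, the matrix Gla protein that restrains calcification, was the most abundant gene named here, at 34980.0, 35132, 14444 and 44272 CPM in members and 10129.9, 12041, 14793 and 13027 CPM in the others (1.27 ± 0.25 SE). In TAC-4w its member value lay at the level of the others. Ahsg, the calcification inhibitor fetuin-A, was at 227, 218, 193 and 223 CPM against 59.8, 67.4, 48 and 52 CPM (1.90 ± 0.11 SE), but missed the threshold when barcodes with markers of another cell type were left out (0.76, adjusted p = 0.15). Of 7 tested hyaluronan and lectican genes, Hapln1, Bcan, Acan and the hyaluronan receptor Cd44 were higher, and the hyaluronan synthases Has1 and Has2 were lower (-3.38 and -1.40). Of 12 tested small leucine-rich proteoglycans 5 were higher and 3 lower (median 0.07), with Prelp at 1941, 2209, 1222 and 2279.6 CPM against 293, 303, 583 and 467 CPM (2.24 ± 0.24 SE) and Podn lower (-2.64 ± 0.30 SE). The higher proteoglycans numbered 2 without sham, without TAC-2w or with no replicate block. Without TAC-2w, 2 mineralization regulators were higher, and no regulator was called lower in 9 of the 12 alternative settings. The higher hyaluronan genes numbered 2 with no replicate block and 2 after thinning.

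**Figure D3:**
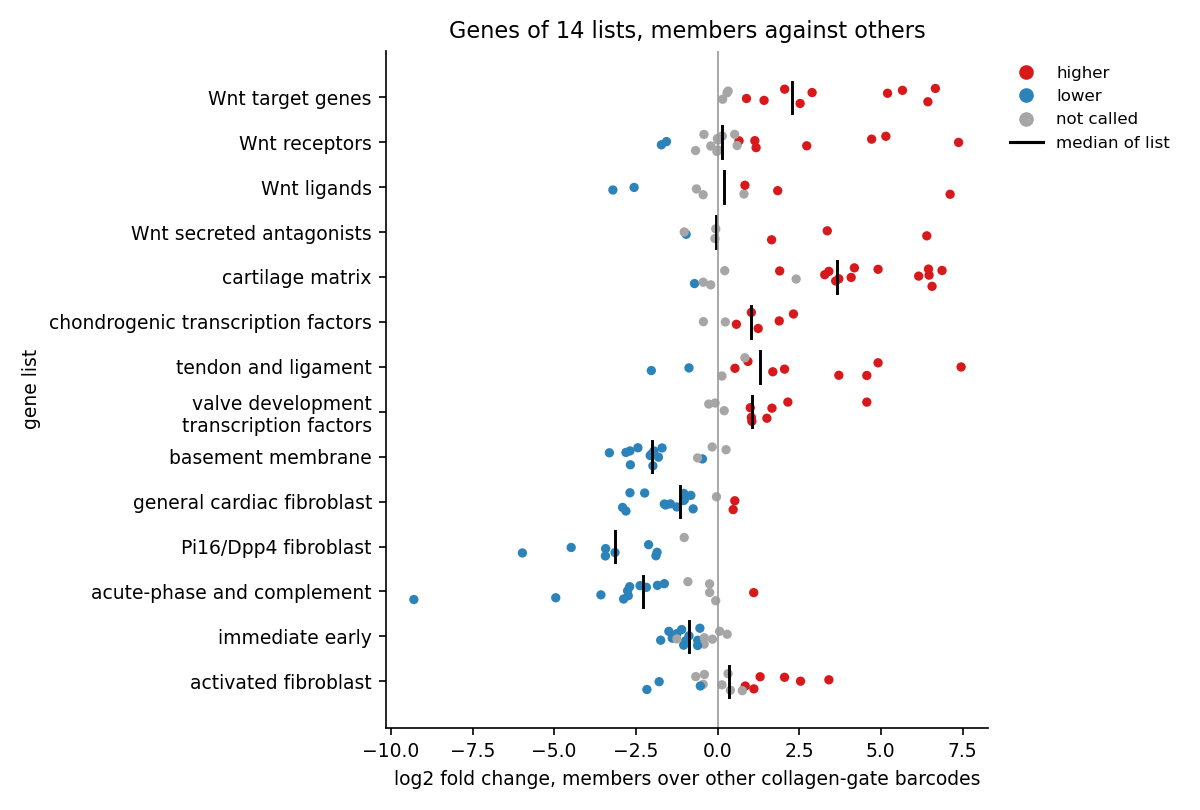
Log2 fold changes of members over the other collagen-gate barcodes for the tested genes of 14 lists (1 point per gene, coloured by the call at an adjusted p under 0.05), with the median of each list as a bar. Cartilage matrix and Wnt target genes lie mostly to the right (medians 3.67 and 2.29) and Pi16/Dpp4 fibroblast, acute-phase and basement membrane genes to the left (medians -3.14, -2.27 and -1.99), and the leftmost point, Saa3, is a fitted value of a gene at 0 in members and is no bound.

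Genes that mark most cardiac fibroblasts were lower in members. Of 16 such genes 13 were lower and 2, Dpt and Lum, higher, with a median of -1.14, and without sham or without TAC-2w 1 was higher. None was higher with no replicate block, where 10 were lower, or when at least 2 of the 3 selecting genes were required. Tcf21, a transcription factor of cardiac fibroblasts, was at 48.2, 30.6, 25.1 and 82.5 CPM in members and 204, 237, 130.1 and 181 CPM in the others (-2.23 ± 0.23 SE), and Mfap5, a microfibril protein, at 668, 717, 743 and 969.6 CPM against 2329, 2093, 1948 and 2808 CPM (-1.58 ± 0.08 SE). Of 9 tested genes of Pi16/Dpp4 fibroblasts, a state found around vessels in many organs, 8 were lower and none higher (median -3.14). Pi16 was at 152, 155, 113 and 251 CPM against 1668, 1224, 1127 and 1635 CPM (-3.14 ± 0.12 SE, adjusted p = 3.35e-07), and Cd248 at 11.2, 7.83, 3.58 and 17.2 CPM against 252, 164, 140.4 and 276 CPM (-4.48 ± 0.16 SE). No library's member value reached that of the others for either gene. Of 16 tested basement membrane genes 13 were lower and none higher (median -1.99), among them Col4a1 (-2.44 ± 0.16 SE), Lamb1 (-3.31 ± 0.22 SE) and Nid1, which was at 174, 136, 94.8 and 92.8 CPM against 967, 1019.8, 498 and 673 CPM (-2.67 ± 0.12 SE).

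Of 16 tested acute-phase, complement and chemokine genes 11 were lower and 1, C4b, higher (median -2.27, also with Saa3, which had no UMI in members, at its bound). C3, the central complement component, was at 182, 109.6, 32.2 and 209.7 CPM in members and 974, 903, 719.9 and 860.1 CPM in the others (-2.88 ± 0.27 SE), and Cxcl1, a chemokine that attracts neutrophils, at 207, 91.3, 34 and 79.1 CPM against 966, 854, 225 and 567 CPM (-2.75 ± 0.16 SE). Both were lower in members of all 4 libraries. Of 17 tested immediate early genes, which respond within minutes to stress and to cell handling, 11 were lower and none higher (median -0.87). Fos was at 1790.1, 1512, 2967 and 1533 CPM against 4156, 4942, 3448 and 2915 CPM (-1.04 ± 0.19 SE) and Atf3 at 195, 210.0, 66.2 and 148 CPM against 753, 817, 133 and 481 CPM (-1.74 ± 0.15 SE). Of 20 tested BMP and TGF-beta ligands and antagonists 5 were higher and 8 lower (median -0.36), with Bmp2 higher (1.48 ± 0.18 SE) and Tgfb1 lower (-0.93 ± 0.16 SE). Of 16 genes of activated fibroblasts 6 were higher and 3 lower (median 0.36), and the higher ones included Comp, Thbs4 and Postn, a matrix protein induced in injured heart, at 528, 576, 696 and 581 CPM against 230.2, 297, 252 and 696 CPM (0.85 ± 0.22 SE). In TAC-6w alone Postn was lower in members than in the others, and it missed the threshold when barcodes with markers of another cell type were left out (0.54, adjusted p = 0.0695). The higher genes of activated fibroblasts numbered 3 without sham, 2 without TAC-2w, 9 without TAC-4w and 1 with no replicate block. Of 8 genes of fibroblasts marked by Gdf10, Sfrp2, Cxcl14 or Pla1a, 1 was higher and 3 were lower, with Cxcl14 at 30.7, 40.4, 0 and 41.3 CPM against 333, 362, 115 and 542 CPM (-3.55 ± 0.24 SE). Of 12 interferon-inducible genes 1, Ifi44, was higher and 2 were lower (median -0.34), and of 4 atrial cardiomyocyte genes 1, Myl7, was lower. With 10.2% higher and 11.2% lower over all genes tested, neither count is read as a result about its list. Of 10 cell cycle genes only Top2a could be tested, and it was not called (-3.59 ± 1.17 SE). Without TAC-4w, 4 of 8 tested cell cycle genes were lower, as were 5 of the Gdf10, Sfrp2, Cxcl14 or Pla1a genes. The single higher interferon-inducible gene was lost without sham, and 3 were higher without TAC-2w. No atrial gene was called lower without sham, without TAC-2w, with no replicate block, in DESeq2 or after Scrublet removal. The same held with at least 5 UMIs or at least 2 of the 3 selecting genes required. It also held after thinning and when barcodes with markers of another cell type were left out. With no replicate block, 6 immediate early genes were lower. Of the BMP and TGF-beta genes, 3 were higher and 7 lower without TAC-2w, and 3 were higher and 4 lower with no replicate block.

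The 10 named genes with the lowest fold changes included 4 without a UMI in any member. Against a floor of 3 UMIs over all members, which is 0.787 CPM, Saa3, an acute-phase protein, was at least 10.5-fold lower, Serpina3c, a protease inhibitor, at least 9.77-fold, Plau, the plasminogen activator urokinase, at least 6.92-fold and Sema3g, a semaphorin, at least 4.50-fold. Plau missed the threshold without the TAC-2w library (adjusted p = 0.0506), and Sema3g in DESeq2 (adjusted p = 0.0951) and when at least 2 of the 3 selecting genes were required (adjusted p = 0.0859). Adgrd1, an adhesion G-protein-coupled receptor, was at 6.29, 0.652, 0 and 3.44 CPM in members and 108, 79.3, 63.2 and 64.2 CPM in the others (-4.95 ± 0.33 SE, adjusted p = 5.61e-06), and Cxcl5, a chemokine, at 0, 1.3, 0 and 3.44 CPM against 9.67, 16, 92.9 and 17.4 CPM, from 3 UMIs in members. The peptidase genes Dpp4 and Lvrn, the proton pump gene Atp6v0a4 and Tmeff2 had 1 UMI each in members and 1373, 1614, 923 and 571 UMIs in the others.

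Of the pericyte and smooth muscle markers, 4 of 5 tested were higher in members. Rgs5, a regulator of G-protein signalling typical of pericytes, was at 109, 157, 419 and 230.4 CPM against 3.74, 4.58, 72.4 and 3.11 CPM (4.51 ± 0.47 SE, adjusted p = 7.27e-05), Acta2, smooth muscle actin, was at 333, 552, 94.8 and 303 CPM against 215, 183, 81.9 and 41 CPM (1.3 ± 0.33 SE, adjusted p = 0.0174), and the potassium channel genes Kcnj8 and Abcc9 had 1.01 ± 0.27 SE and 0.94 ± 0.21 SE. When barcodes with markers of another cell type were left out, Rgs5 remained higher at 5.30 ± 0.27 SE (adjusted p = 2.98e-07), whereas Acta2 (0.99 ± 0.49 SE, adjusted p = 0.211), Kcnj8 (0.17 ± 0.51 SE, adjusted p = 0.889) and Abcc9 (0.33 ± 0.34 SE, adjusted p = 0.584) missed the threshold and Myh11 was called lower in members (-3.05 ± 0.48 SE, adjusted p = 0.000983). That setting left barcodes out by these same markers, so their values in it were shaped by the filter and are not read as a result. Of the 5 markers, 2 were higher without sham and 1 without TAC-2w. The part of cells of that type in these differences was not tested further. With barcodes that carry markers of another cell type left out, Dkk3, Axin2, Comp and Scx stood at 3.49, 2.81, 3.51 and 4.79 on the log2 scale.

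Chad divided the members. At least 3 Chad UMIs were found in 64 members, of which 25 were in sham, 24 in TAC-2w, 5 in TAC-4w and 10 in TAC-6w, while 215 members had none and 8 had 1 or 2. The 64 had a median of 13495.5 UMIs and the 215 a median of 12343. This division used a selecting gene and is described without a test, with intervals that cover counting error only. Spp1, osteopontin, stood at 418 CPM with Chad and 3.54 CPM without, a ratio of 118, 95% interval 63.4 to 248. A Spp1 UMI was found in 31.25% of the 64 members and 0.930% of the 215. By library, Spp1 was at 172, 751, 118 and 135 CPM with Chad and 8.25, 0, 2.09 and 0 CPM without. The pooled ratio thus leans on a minority of members and on the TAC-2w library. Cytl1 stood at 2665 against 267 CPM (ratio 9.96, 95% interval 9.17 to 10.8), Fmod at 1525 against 277 CPM (ratio 5.5, 95% interval 5.03 to 6.01), and Ecrg4, a secreted peptide precursor, at 4026 against 800.0 CPM (ratio 5.03, 95% interval 4.77 to 5.31). These 4 genes were higher with Chad in all 4 libraries. So were the matrix genes Col11a1, at 119 against 6.02 CPM, Cilp2, at 190.1 against 13.5 CPM, Epyc, at 471 against 63.8 CPM, and Fn1, fibronectin, at 466 against 51.4 CPM. In TAC-6w, Fn1 stood at 20.8 CPM with Chad and 15.9 CPM without, from 6 UMIs over all members there. Comp stood at 3922 against 840.0 CPM and was higher with Chad in 3 libraries and lower in TAC-4w.

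Other genes were found where Chad was not. Coch had no UMI in the 64 members with Chad and 158 CPM in the 215 without, and Adamts19, a secreted metalloprotease, none against 73 CPM, where 3 UMIs over the 64 members would be 3.44 CPM. Id4, an inhibitor of helix-loop-helix factors, stood at 9.16 CPM with Chad and 202 CPM without (ratio 0.0454, 95% interval 0.0195 to 0.0901), Rgs5 at 11.5 against 241 CPM (ratio 0.0475, 95% interval 0.0227 to 0.0879), and Prss35 at 6.87 against 103 CPM (ratio 0.0669, 95% interval 0.0243 to 0.147). All 5 were lower with Chad in each library. In TAC-6w, Coch was at 5.29 CPM without Chad, from 1 UMI, and Adamts19 at 15.9 CPM. Both had none with Chad there, so their direction in TAC-6w rests on few UMIs.

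**Figure D4:**
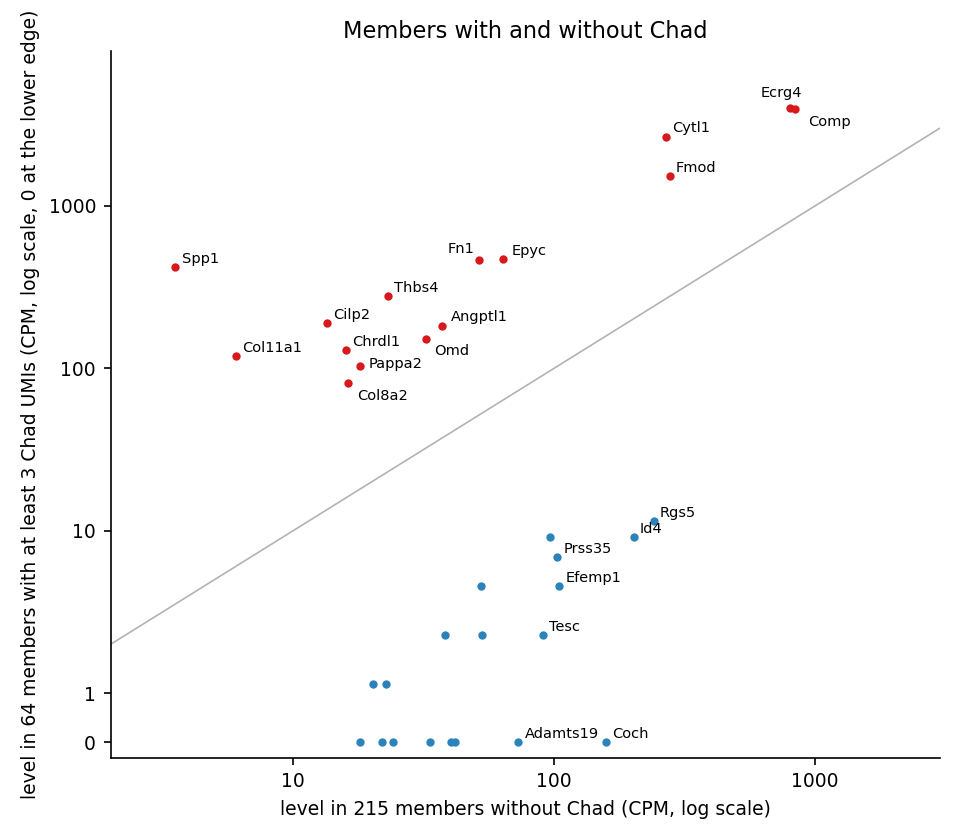
Levels in the 64 members with at least 3 Chad UMIs (vertical axis) against the 215 members without Chad (horizontal axis), in CPM on log scales with 0 at the lower edge, for genes with the largest and smallest ratios that had the same direction in all 4 libraries, and Comp. Spp1, Cytl1, Fmod and Ecrg4 lie far above the line of equal levels, and Coch and Adamts19 lie at 0 with Chad.

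Clusters computed without the 9 selecting genes brought most members together. Of 9 Leiden clusters of the gate, 1 held 244 of the 287 members (85.0%, exact 95% interval 80.4 to 88.9) and 1.34% of the others, and Coch, Npy, Prss35, Clu and Ecrg4 led it. It was composed of 367 barcodes, of which 123 were not members, and 83 of these had no UMI of Wif1, Ucma or Chad. By library it held 99 of 116, 93 of 102, 23 of 35 and 29 of 34 members. The TAC-4w library again differed, with 12 of its members in a cluster led by Gdf10, Tnfrsf11b, Cpxm2, Sost and Comp, of which 144 of 194 barcodes came from TAC-4w. Another 24 members, none of them from TAC-4w, lay in the largest cluster, of 3248 barcodes. With other resolutions or fewer components, the leading cluster held 84.0 to 87.8% of members. As a share of the gate, the leading cluster itself held 3.88, 5.08, 8.25 and 2.16%.

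The share of members was compared across libraries by counting error only. Members were 3.08% (exact Clopper-Pearson 95% interval 2.55 to 3.69) of the gate in sham, 3.78% (3.10 to 4.57) in TAC-2w, 11.1% (7.86 to 15.1) in TAC-4w and 1.27% (0.878 to 1.77) in TAC-6w. After each barcode was thinned to 2000 UMIs the shares were 1.60, 2.04, 6.08 and 0.375%, in the same order. Of all kept barcodes, members were 1.41% (1.17 to 1.69), 1.57% (1.28 to 1.90), 0.519% (0.362 to 0.721) and 0.610% (0.423 to 0.851). The TAC-4w share was thus the highest within the gate, in a library where few barcodes passed it, while of all barcodes the TAC-4w and TAC-6w shares lay below the others and their intervals overlapped. The sham and TAC-6w libraries share a batch label, and within it the share was 3.08% in sham and 1.27% in TAC-6w. TAC-2w and TAC-4w are each alone in their batch, where batch and time cannot be told apart.

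**Figure D5:**
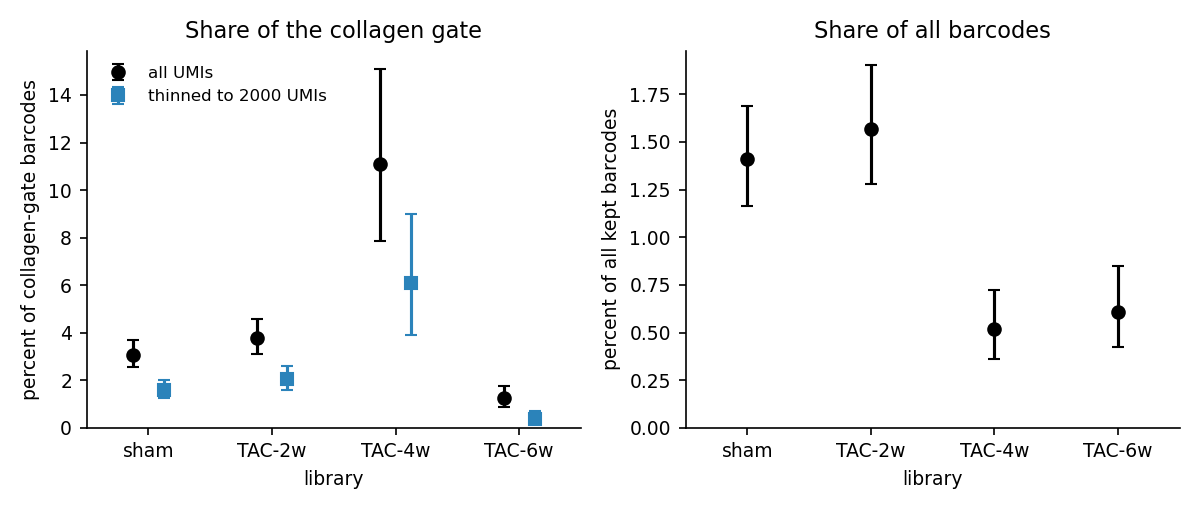
Share of members among collagen-gate barcodes (left, with all UMIs and after thinning to 2000 UMIs) and among all kept barcodes (right), in percent by library, with exact 95% intervals as bars. TAC-4w is highest (11.1%) and TAC-6w lowest (1.27%) on the left, and on the right the intervals of TAC-4w (0.519%) and TAC-6w (0.610%) overlap.

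Gene levels of members across libraries are given with intervals for counting error and no test, since each condition had 1 library. Between TAC-6w and sham, which share a batch label, Wif1 stood at a ratio of 0.386 (95% interval 0.33 to 0.449), Ucma at 0.229 (95% interval 0.117 to 0.407) and Chad at 2.2 (95% interval 1.95 to 2.48). A single TAC-6w barcode held 166 of the 395 Chad UMIs, and without it, a choice made after the values were seen, the Chad ratio was 1.33 (95% interval 1.15 to 1.55). Over all gate barcodes, members and others together, Chad was at 22 CPM in sham and 22.8 CPM in TAC-6w, and Wif1 at 57.8 and 11.1 CPM. Cytl1 had a ratio of 0.133 (95% interval 0.0995 to 0.175) and Fn1 of 0.126 (95% interval 0.0458 to 0.279), while the same 2 genes had 1.24 and 0.941 in the other gate barcodes. Comp and Dkk3 stayed near the sham level in members, at 1.02 (95% interval 0.916 to 1.14) and 0.86 (95% interval 0.762 to 0.967). Postn had a ratio of 1.1 (95% interval 0.927 to 1.3) in members and 3.02 in the others. Most gate barcodes of these libraries lay in different clusters. The cluster with 2447 of the 2685 TAC-6w gate barcodes held 10 from sham. Those with 1811 and 1683 sham barcodes held 37 and 60 from TAC-6w. Ratios of TAC-6w to sham in the others, here and below, thus compare barcodes of different clusters.

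Of 3870 genes that had 50 or more UMIs in one of the sums, 1584 had a TAC-6w to sham ratio above 1 and 2286 below. The median ratio was 0.912. Among the largest ratios was that of Inmt, a methyltransferase, at 5.3 (95% interval 3.73 to 7.55). Bc1 stood at 3.91 (95% interval 2.82 to 5.42) and Dhrs3, a retinaldehyde reductase, at 3.37 (95% interval 2.32 to 4.85). Bc1 and Dhrs3 were also higher in the others (2.01 and 2.43), whereas Inmt stood at 0.633 there. Among the smallest were Ccl2, a monocyte chemokine with no UMI in TAC-6w members and at least 8.87-fold lower, and Myh11, at least 5.15-fold lower. The remaining 3 were haemoglobin genes of red cells. Ccl2 had a ratio of 0.939 and Myh11 of 0.0561 in the others.

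Between TAC-2w and sham, 4337 genes entered, with a median ratio of 1.02, and Wif1 and Chad stood at 0.95 (95% interval 0.896 to 1.01) and 1.09 (95% interval 0.995 to 1.19). The largest ratios were those of Nrgn at 9.33 (95% interval 3.74 to 30.0), Tcap, a titin-binding protein of muscle, at 7.21 (95% interval 4.61 to 11.8), Spp1 at 4.18 (95% interval 3.18 to 5.56), Omd, the proteoglycan osteomodulin, at 4.17 (95% interval 2.79 to 6.42) and Igfbp5, an IGF-binding protein, at 3.39 (95% interval 3.01 to 3.84). Ccl2 and Ccl7, both chemokines for monocytes, had the smallest at 0.0499 (95% interval 0.0197 to 0.106) and 0.0778 (95% interval 0.0244 to 0.192), beside 3 haemoglobin genes. Spp1 was far higher in the others too (24.3), while Igfbp5 was lower there (0.55). In TAC-4w members the ratio to sham was 0.0471 (95% interval 0.0329 to 0.0655) for Cytl1, beside 4.85 in the others, 0.0782 (95% interval 0.0513 to 0.115) for Chad, 6.64 (95% interval 5.06 to 8.81) for Coch and 2.45 (95% interval 2.19 to 2.73) for Vcan, the proteoglycan versican. Omd and Comp stood at 5.21 (95% interval 3.31 to 8.35) and 1.85 (95% interval 1.73 to 1.98). Batch cannot be told apart from time in both of these comparisons. Markers of other cell types also differed between TAC-4w and sham members. Neutrophil markers summed to 170 and 11.2 CPM, platelet markers to 265 and 30.0 CPM and B cell markers to 42.9 and 0 CPM. Macrophage, endothelial and cardiomyocyte sums were lower in TAC-4w members. Nrgn had a TAC-4w to sham ratio of 48.1 (95% interval 19.9 to 152). The part of such cells in the ratios above was not tested.

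The 4 tissue sections, which the selection did not use, held 25996378, 48754396, 31942372 and 48288659 UMIs and few of the selecting genes. Their batch labels were 1, 1, 2 and 3. A Visium spot covers a small region that can hold several cells, so fewer cells of a type and less RNA per cell cannot be told apart in it. Spots with a UMI of Wif1, Ucma or Chad numbered 18 of 1676 (1.07%), 41 of 2063 (1.99%), 9 of 1228 (0.733%) and 44 of 2193 (2.01%). Nearly all carried Wif1, with 17, 48, 10 and 45 UMIs, or 0.654, 0.985, 0.313 and 0.932 CPM, while Ucma had 1 UMI in all and Chad 4. The median depth of these spots was 18822, 24740, 27189 and 34012 UMIs, against 15452, 24493, 27611 and 19776 in the other spots, so in sham and TAC-6w they were the deeper spots. A neighbouring spot with such a UMI was found for 2 of 18, 8 of 41, 0 of 9 and 13 of 44 of them (11.1, 19.5, 0 and 29.5%), and for 5.97, 10.3, 4.35 and 9.21% of the other spots.

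With edgeR's quasi-likelihood test over the 4 sections, 5 of 12803 genes (0.0391%) were higher in these spots and 1 (0.00781%) lower, 0.0469% in either direction, at an adjusted p under 0.05, and 567 had an unadjusted p under 0.05. Vwf, a gene of endothelial cells, was at 27.8, 55.5, 30.0 and 69.3 CPM in these spots and 22.7, 23.4, 27.4 and 31.1 CPM in the others (0.92 ± 0.16 SE, adjusted p = 4.26e-05), higher in all 4 sections. Mgp was at 676, 598, 716 and 691 CPM against 372, 334, 645 and 553 CPM (0.44 ± 0.09 SE, adjusted p = 0.00142), also higher in all 4. Acta2, Tagln and Inmt were called higher (0.65 ± 0.11 SE, 0.86 ± 0.18 SE and 0.95 ± 0.22 SE), each with a higher value in 2 of 4 sections, and Ptgds, a prostaglandin synthase, lower (-0.50 ± 0.09 SE), with a higher value in 1 of 4 sections. The fit for the sections pooled the spread over all genes (mean total degrees of freedom 38409). Its p-values and SEs therefore do not measure how a single gene varied between sections. DESeq2 called 0 genes, as did the edgeR test when a spot needed at least 2 UMIs, where Mgp and Acta2 had log2 fold changes of -0.083 and -0.27. That minimum was met by 0, 5, 1 and 3 spots, too few to read a call or a direction from it. Of the 15 named genes that were highest in members, only Pdzrn4 was abundant enough to test in the sections (0.56 ± 1.21 SE). Hapln1 had 2 UMIs in all 4 sections, so its place in the tissue was not detectable at this depth.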

How the data were processed

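The deposited matrices hold raw UMI counts per gene and barcode (4 libraries) or spot over tissue (4 sections), made by the authors against mm10. The submitters' processing notes name Cell Ranger 7.0.0 and Space Ranger 1.3.1, whereas the file headers name cellranger 6.0.0 and spaceranger 1.2.0. A nuclei preparation is given in the labels and dissociated cells in the study's methods, and intronic reads may count in one and not the other. Of 32473 barcodes, 27053 passed the filters given in the results, and the study gives a higher mean number of cells per sample than any library kept here. Doublets were removed in the study with an expected rate of 7%, and here only in an alternative.

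Members and gene lists were chosen with earlier results of these data known. UMIs were summed per library and class and tested with edgeR 4.0.16 (TMM, filterByExpr, quasi-likelihood, library as block, Benjamini-Hochberg adjustment), leaving out the 9 selecting genes. Sums of spots were tested in the same way with the section as block. Each library gave both classes, so the pairing comes from the sample itself. Named genes were the 15 called with the highest and the 10 with the lowest log2 fold change among those with at least 50 UMIs in members (higher) or in the others (lower) and the same direction in all 4 libraries, and, across libraries, the 5 highest and 5 lowest ratios of TAC-2w and TAC-6w to sham, of which some are not reported here. Log2 fold changes are edgeR's fitted values, and CPM is UMIs per 1000000 UMIs of the same sum. Genes without a UMI in a group were set against a floor of 3 UMIs over the group. Intervals (95%) are exact Clopper-Pearson, Poisson or conditional binomial and cover counting error only. For thinning, each barcode was drawn down to 2000 UMIs and shallower ones were left out. For the shares, the gate and the rule for members were then applied again. The test after thinning kept the gate and the members set at full depth. Clusters used scanpy 1.11.5 without integration. Alternatives included DESeq2 1.42.0, no filter, no block, each library left out, other thresholds and Scrublet. In data simulated from the member comparison (11035 genes), edgeR recovered 66.3% of 2-fold and 94.8% of 4-fold changes. Promoter windows came from RefSeq (GRCm38.p6). Image scale factors were not used.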

Additional observations from a re-analysis of the deposited data

Results flagged for a closer look

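In 6 listed genes the members lay at least 2-fold above the other collagen-gate barcodes in 1 or more libraries and at least 2-fold below them in another, each beyond its counting interval. With 1 library per condition the difference between libraries was not tested. The ratio of members to others was 23.5 in sham, 15.7 in TAC-2w, 2.52 in TAC-6w and 0.228 in TAC-4w for Cytl1. For Inmt it was 2.38 in TAC-6w and 0.0645 in TAC-4w, with values under 1 in sham and TAC-2w too. For Col4a6, a basement membrane collagen chain, it was 3.83 in TAC-6w and 0.179 in TAC-4w. Ifit1 and Irf7, both induced by interferon, stood at 2.08 and 2.07 in TAC-4w and at 0.378 and 0.411 in TAC-2w. Sost, a secreted Wnt antagonist, stood at 3.89 in TAC-2w and 0 in sham, where the interval reached 0.498. The TAC-4w library was 1 of the 2 compared for 5 of these 6 genes.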

How the results depend on the processing

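No gene called in members changed direction among the genes called in any alternative. The pairing of the classes by library mattered, since with no replicate block 641 genes were higher and 689 lower, and for the spots 0 and 0. Leaving out 1 library at a time gave 597 to 1549 higher and 625 to 1702 lower genes, with the lowest counts without TAC-2w (597 and 625), nearly the same without sham (601 and 705) and the highest without TAC-4w. Without TAC-4w, the log2 fold changes of Comp, Rgs5 and Acan were larger, at 4.18, 5.22 and 4.87. Those of Pappa2, Uts2r and Col9a1 were also larger, at 7.63, 7.87 and 7.25, and that of Coch was smaller, at 5.59. Requiring at least 2 of the 3 selecting genes gave 648 higher and 835 lower genes, and thinning to 2000 UMIs gave 414 and 547. DESeq2 called 1125 and 936 genes, of which 54.6% were higher, beside 47.5% in edgeR, with a median log2 fold change of 0.23 over all genes. With no filter on low counts 1241 and 1643 genes were called and that median was -0.21. Of the 25 named genes, Sema3g was lost in 2 settings and Plau in 1, as given above, but only 17 had a result with no replicate block, 14 after thinning and 22 with barcodes of another type's markers left out. Cartilage matrix genes called higher ranged from 8 of 15 tested with no replicate block to 17 of 25 with no filter, and 13 were called with barcodes that carry markers of another type left out.

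For the spots, DESeq2 gave 0 higher and 0 lower genes, as did a minimum of 2 UMIs, where Mgp stood at -0.083 and Acta2 at -0.27. Only 0, 5, 1 and 3 spots met that minimum, too few to read a call or a direction from it. Leaving out 1 section at a time gave 0 to 12 higher and 0 to 19 lower genes, with 2 and 0 without sham, 0 and 1 without TAC-2w, 9 and 2 without TAC-4w and 12 and 19 without TAC-6w. The cause was not tested. A threshold of 5 UMIs gave member shares of 2.55% in sham and 0.782% in TAC-6w, and thinning 1.60, 2.04, 6.08 and 0.375%. Counted over UMIs other than those of mitochondrial and rRNA-like features, the section level of Wif1 was 1.36 CPM in sham, 1.75 in TAC-2w, 0.543 in TAC-4w and 1.68 in TAC-6w. Depth limits the genes with few UMIs in TAC-4w and TAC-6w members, whose sums hold 558856 and 290841 UMIs, and nearly all member genes in the sections.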

Other observations

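Other genes of secreted proteins stood apart in members, and are named here after their values were seen. Clu, the extracellular chaperone clusterin, was at 785, 891, 1185 and 444 CPM in members and 19.1, 23.7, 95 and 19.7 CPM in the others (log2 fold change 4.69 ± 0.27 SE, edgeR adjusted p = 1.8e-06). Ptgds, a prostaglandin D synthase, was at 16.1, 22.2, 32.2 and 24.1 CPM against 0.665, 0.483, 0.525 and 1.36 CPM (4.91 ± 0.40 SE). In the sections its direction was the opposite, lower in the spots with a UMI of Wif1, Ucma or Chad (-0.50 ± 0.09 SE). Ecrg4 was at 1884, 1805, 626 and 1815 CPM against 44.4, 43.9, 273 and 71.4 CPM (4.34 ± 0.65 SE, and 5.13 ± 0.11 SE without TAC-4w). Angptl7, an angiopoietin-like secreted protein, was at 438, 614, 481 and 316 CPM against 30.9, 40.0, 229.8 and 38.9 CPM (3.01 ± 0.41 SE, and 3.64 ± 0.13 SE without TAC-4w). Within members, a Fmod UMI was found in 87.5% of the 72 with a Chad UMI and in 47.9% of the 215 without, a Comp UMI in 91.7% and 41.9%, and a Hapln1 UMI in 48.1% of those with Ucma and 31.3% of those without. These shares are given without a test.

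Of the genes higher in members, 970 were also tested in the sections. They had a higher value in the spots with a UMI of Wif1, Ucma or Chad in 41.8% of cases, near the 40.5% of all 10649 genes tested in both. Of the 1201 genes lower in members that were tested in both, the share was 43.5%.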
